A study of Mus musculus with 4 samples.

Results

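Connexins are the proteins of gap junctions, and the epidermal connexin genes Gja1, Gjb2, Gjb5 and Gjb6 were examined in the dorsal skin of mice treated with imiquimod (IMQ). The members were chosen by gene symbol and comprised 4 of the 24346 genes with an FPKM value (fragments per kilobase of exon, relative to all fragments mapped in that library) in every library, and 4 of the 20 connexin genes among them. All mice were male C57BL/6 mice that were 8 weeks old when the diet began and received the NASH diet, rich in fat, cholesterol and sucrose with added bile salt, for 3 weeks. Cream with 5% IMQ, an agonist of a Toll-like receptor that induces psoriasis-like dermatitis, was then applied for 1 day before the dorsal skin was collected. The Cont-IMQ group received this diet alone, and in the 7KC-IMQ group the diet also contained the oxysterol 7-ketocholesterol (7KC). Each group had 2 libraries, and skin under vehicle cream was not analysed here, so values before IMQ were not compared. The comparison asks how levels in IMQ-treated skin differed when the diet contained 7KC.

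Connexin proteins assemble into hemichannels in the cell membrane, and hemichannels of neighbouring cells dock to form gap junction channels through which ions and small metabolites pass. Undocked hemichannels can release ATP, which acts on purinergic receptors of nearby cells. Keratinocytes express several connexins whose layers of expression differ, and Gjb2 and Gjb6 are known to be induced in wounded and psoriatic epidermis.

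The step between low FPKM values gave estimated depths of 15210000 and 15120000 reads for the Cont-IMQ libraries, and of 16330000 and 15000000 reads for the 7KC-IMQ libraries. Paired values are given in the order of replicate 1 and replicate 2 throughout. At these depths the fewest estimated reads of any member, about 428 for Gjb5 in 7KC-IMQ replicate 2, gave a counting error of 4.83%. This error covers the sampling of reads only, so it does not measure the spread between samples or a difference between the groups. The files do not state whether the libraries came from separate animals, so the p-values measure only the spread between these samples, which may be technical. The whole skin was sequenced, so fewer cells of a type and less RNA per cell cannot be told apart.

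Gjb2 and Gjb6 were higher and Gjb5 was lower in both 7KC-IMQ libraries than in either Cont-IMQ library, whereas the Gja1 values of the groups overlapped. Gjb2 encodes Cx26, a connexin that is scarce in resting interfollicular epidermis and whose mutations cause deafness with or without keratoderma. Its level was 111 and 142 FPKM in Cont-IMQ, and 200.4 and 381 FPKM in 7KC-IMQ. The groups did not overlap, with 7KC-IMQ on top, and 7KC-IMQ replicate 2 was far above the rest. The group means were 126 ± 22.1 FPKM in Cont-IMQ and 291 ± 128 FPKM in 7KC-IMQ (SD, n = 2 each). On the log2(FPKM + 1) scale, which understates differences of low values, the difference between 7KC-IMQ and Cont-IMQ was 1.13 (SE 0.33, limma adjusted p = 0.356 over 15896 genes). This did not pass the adjusted threshold of 0.05, and without 7KC-IMQ replicate 2 the difference was 0.67.

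Gjb6 encodes Cx30, a relative of Cx26 that joins it in mixed channels and is mutated in hidrotic ectodermal dysplasia. Gjb6 was present at 14.9 and 17.2 FPKM in Cont-IMQ, and at 21.1 and 44.8 FPKM in 7KC-IMQ. The order of the libraries was that of Gjb2, with 7KC-IMQ replicate 2 again highest and 7KC-IMQ replicate 1 close to the Cont-IMQ libraries. Means were 16.0 ± 1.63 FPKM in Cont-IMQ and 32.95 ± 16.8 FPKM in 7KC-IMQ (SD, n = 2 each). The log2 difference was 0.90 (SE 0.36, limma adjusted p = 0.4001), which did not pass the threshold. It was 0.38 without 7KC-IMQ replicate 2 and 1.43 without 7KC-IMQ replicate 1.

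Gjb5 encodes Cx31.1, a connexin of differentiating keratinocytes. Its level was 46.0 and 28.6 FPKM in Cont-IMQ, and 25.5 and 18.7 FPKM in 7KC-IMQ. The 7KC-IMQ libraries were below both Cont-IMQ libraries, but 7KC-IMQ replicate 1 lay close to Cont-IMQ replicate 2, and Cont-IMQ replicate 1 stood above the other libraries. Means were 37.3 ± 12.3 FPKM in Cont-IMQ and 22.1 ± 4.81 FPKM in 7KC-IMQ (SD, n = 2 each). The log2 difference of -0.70 (SE 0.27, limma adjusted p = 0.387) did not pass the threshold, and it was -0.37 without Cont-IMQ replicate 1.

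Gja1 encodes Cx43, the most widespread connexin of the body, which in skin is found in basal and spinous keratinocytes, hair follicles and dermal cells. It was present at 193 and 224 FPKM in Cont-IMQ, and at 216 and 257 FPKM in 7KC-IMQ. The groups overlapped, since 7KC-IMQ replicate 1 lay below Cont-IMQ replicate 2. Means were 208 ± 21.6 FPKM in Cont-IMQ and 236 ± 29.2 FPKM in 7KC-IMQ (SD, n = 2 each), a log2 difference of 0.18 (SE 0.13, limma adjusted p = 0.600). The difference depended on each library, being 0.074 without Cont-IMQ replicate 1, 0.28 without Cont-IMQ replicate 2, 0.31 without 7KC-IMQ replicate 1 and 0.054 without 7KC-IMQ replicate 2. It was 0.09 after quantile normalization and 0.10 when the libraries were rescaled to the same summed FPKM.

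**Figure D1:**
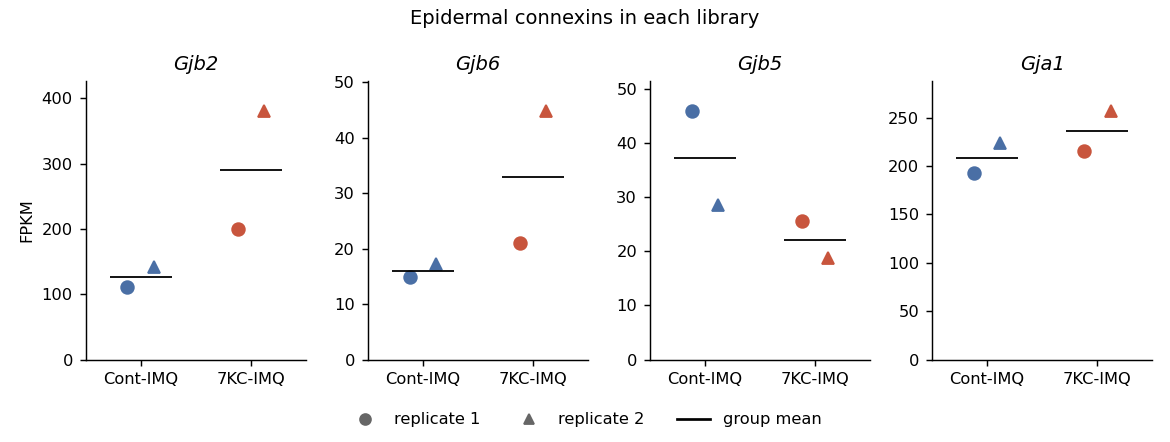
FPKM of Gjb2, Gjb6, Gjb5 and Gja1 (vertical axes, each from 0) in the Cont-IMQ and 7KC-IMQ libraries, with circles for replicate 1, triangles for replicate 2 and a line at each group mean. Gjb2 reaches 381 FPKM and Gjb6 44.8 FPKM in 7KC-IMQ replicate 2, Gjb5 is lowest there at 18.7 FPKM, and the groups overlap for Gja1.

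Across all 15896 genes tested with limma, 1 gene (0.00629%) passed an adjusted p of 0.05, and 0 of the 4 epidermal connexins did. The gene was Mir24-2, chosen after its values were seen, which had 549 and 555 FPKM in Cont-IMQ and was listed at 0 in both 7KC-IMQ libraries (limma adjusted p = 3.8e-05). Mir24-2 is a microRNA gene read from mRNA libraries, and whether these values reflect its RNA was not tested. The count was 9 without Cont-IMQ replicate 1 and 5 without Cont-IMQ replicate 2. At an unadjusted p under 0.05, 1 of the 4 connexins was higher in 7KC-IMQ (Gjb2), against 7.5% of all genes, and 0 of the 4 were lower, against 5.47% of all genes. These counts were not stable. Gjb5 also had an unadjusted limma p under 0.05 with a minimum mean of 1 FPKM, median ratio scaling, quantile normalization, rescaling to the same summed FPKM and a replicate block, and Gjb6 did with that rescaling and with the block, each of which gave 2 higher and 1 lower. When a library was left out, the count was 0 without Cont-IMQ replicate 1, only Gjb5 without Cont-IMQ replicate 2, Gjb2 and Gjb6 without 7KC-IMQ replicate 1, and only Gjb2 without 7KC-IMQ replicate 2. Without overlap between the groups, 2 of the 4 connexins were above Cont-IMQ, against 23.9% of all genes, and 1 of the 4 was below, against 22.9% of all genes. Separation of the groups was therefore common among all genes, and a two-sided exact permutation test of 2 against 2 libraries cannot give a p below 0.33. Of the genes separated without overlap 51.1% were higher in 7KC-IMQ, and 31.8% when the libraries were rescaled to the same summed FPKM, whereas the separation of Gjb2, Gjb6 and Gjb5 was present under all 4 scalings. Median ratio scaling could move values only slightly, since its factors ranged from 0.993 to 1.005, so it was hardly a separate check. In size, the difference of Gjb2 was above that of 99.5% of all genes tested and that of Gjb6 above 99.3%, while 0.994% of genes had a lower difference than Gjb5 and 82.4% a lower difference than Gja1. The median difference of the 4 connexins was 0.54, beside -0.0056 over all genes, and it was 0.22 without 7KC-IMQ replicate 2 and 0.87 without 7KC-IMQ replicate 1.

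Levels, which FPKM gives per length, were ranked over both groups together. Gja1 ranked 400 and Gjb2 ranked 430 among the 15896 genes, and Gjb5 and Gjb6 ranked 3166 and 3779. The order of the connexins was not the same in both groups. In Cont-IMQ, both libraries had more Gja1 than Gjb2 per length, with Gjb2 to Gja1 ratios of 0.574 and 0.636 in replicates 1 and 2. In 7KC-IMQ the ratios were 0.929 and 1.48, so that Gjb2 exceeded Gja1 in replicate 2 alone, and the ranges of these genes overlapped. Likewise Gjb5 exceeded Gjb6 in both Cont-IMQ libraries and in 7KC-IMQ replicate 1, with Gjb6 to Gjb5 ratios of 0.324, 0.602 and 0.826, and Gjb6 exceeded Gjb5 in 7KC-IMQ replicate 2, with a ratio of 2.39. The Gjb2 to Gjb6 ratio varied less, at 7.44 and 8.26 in Cont-IMQ and at 9.50 and 8.50 in 7KC-IMQ. For a ratio separated between groups of 2, the two-sided exact permutation p is 0.33, so none of these ratios was called different.

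The share of each connexin in the summed FPKM of the 20 connexin genes does not depend on a scale factor applied to the library. The sum was 554 and 581 FPKM in Cont-IMQ, and 631 and 867 FPKM in 7KC-IMQ. Gjb2 made up 20.02% and 24.5% of it in the Cont-IMQ libraries, and 31.7% and 43.9% in the 7KC-IMQ libraries. Gjb2 was thus the second most abundant connexin in Cont-IMQ and in 7KC-IMQ replicate 1, and the most abundant in 7KC-IMQ replicate 2. Gja1 made up 34.9% and 38.5% in Cont-IMQ, and 34.2% and 29.6% in 7KC-IMQ. Gjb5 accounted for 8.30% and 4.92% in Cont-IMQ, and for 4.05% and 2.16% in 7KC-IMQ. Gjb6 accounted for 2.69% and 2.96% in Cont-IMQ, and for 3.34% and 5.17% in 7KC-IMQ, so its share was separated in the direction opposite to that of Gjb5. Together the 4 genes held 68.4 ± 3.50% of connexin FPKM in Cont-IMQ and 77.1 ± 5.35% in 7KC-IMQ (SD, n = 2 each). The difference of 8.73 percentage points was 4.95 without 7KC-IMQ replicate 2 and 12.5 without 7KC-IMQ replicate 1.

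**Figure D2:**
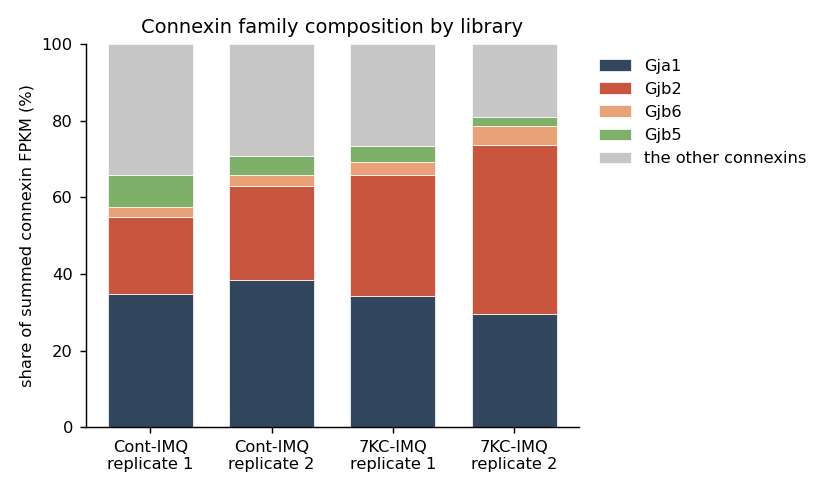
Share of each connexin in the summed connexin FPKM (vertical axis, percent) in each of the 4 libraries (horizontal axis), as stacked bars with the 16 other connexins summed in grey. The Gjb2 share is 20.02% and 24.5% in Cont-IMQ and 31.7% and 43.9% in 7KC-IMQ, while the Gjb5 share is smallest, at 2.16%, in 7KC-IMQ replicate 2.

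Gjb2 and Gjb6 lie beside each other on chromosome 14, both on the minus strand. In the GENCODE annotation of GRCm38, Gjb2 (ENSMUSG00000046352.7) spans chr14:57098600-57104702 and Gjb6 (ENSMUSG00000040055.9) spans chr14:57123303-57133611, with 18600 bases between them. Gjb5 (ENSMUSG00000042357.2) is at chr4:127354809-127358181 on the minus strand and Gja1 (ENSMUSG00000050953.10) at chr10:56377330-56402513 on the plus strand, and 0 annotated genes overlap any of the 4. None of the 75-base windows of their transcripts occurs in a transcript of another gene, so no read of that length from the 4 genes matches another annotated transcript in full. The next genes beside the pair were Gja3, a lens connexin at 0.0790 and 0.771 FPKM in Cont-IMQ and 0.197 and 0.0534 FPKM in 7KC-IMQ, and Cryl1, which encodes lambda-crystallin, at 6.38 and 6.55 FPKM in Cont-IMQ and 5.86 and 6.80 FPKM in 7KC-IMQ. Both neighbours overlapped between the groups, unlike Gjb2 and Gjb6. The genes beyond them were B020004C17Rik, listed at 0 in every library, and Ift88, a gene of ciliary transport at 3.92 FPKM in both Cont-IMQ libraries and at 3.46 and 3.73 FPKM in 7KC-IMQ, lower without overlap except after quantile normalization. Of the neighbours of Gja1, Tbc1d32 and Msl3l2 overlapped between the groups, 4930467K11Rik was listed at 0, and Hsf2, a heat shock factor gene 1083871 bases away, was lower in 7KC-IMQ without overlap (log2 difference -0.39, limma adjusted p = 0.364).

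The 250 bases before the RefSeq start of Gjb2 and Gjb6 are shown because these neighbours were both higher in 7KC-IMQ, and those of Gjb5 because it was lower. They are promoter sequences from RefSeq (GRCm38.p6), read 5′ to 3′ on the minus strand, with matches on either strand to any of 7 motifs searched in capitals.
Gjb2, chr14:57104703-57104952, minus strand: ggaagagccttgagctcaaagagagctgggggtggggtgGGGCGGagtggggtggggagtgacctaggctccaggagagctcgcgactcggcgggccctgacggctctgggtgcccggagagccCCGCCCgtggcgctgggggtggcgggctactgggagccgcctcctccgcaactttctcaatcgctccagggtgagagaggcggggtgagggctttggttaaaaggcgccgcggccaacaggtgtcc
Gjb6, chr14:57133612-57133861, minus strand: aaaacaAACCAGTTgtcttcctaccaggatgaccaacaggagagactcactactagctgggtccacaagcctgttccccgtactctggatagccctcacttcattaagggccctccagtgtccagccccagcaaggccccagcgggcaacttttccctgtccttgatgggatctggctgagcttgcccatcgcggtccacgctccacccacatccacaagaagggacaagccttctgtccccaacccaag
Gjb5, chr4:127358165-127358414, minus strand: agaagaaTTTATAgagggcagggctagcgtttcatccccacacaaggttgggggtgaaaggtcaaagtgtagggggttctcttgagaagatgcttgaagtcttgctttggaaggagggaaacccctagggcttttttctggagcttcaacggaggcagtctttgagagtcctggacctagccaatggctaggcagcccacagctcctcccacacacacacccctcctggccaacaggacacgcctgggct
The last 17 bases shown for Gjb5 lie inside the gene as GENCODE draws it. The Gjb2 window held 2 matches to the GC box GGGCGG, a motif present in 32.7% of the 32851 promoter windows of the same length, and had 69.2% G or C and 18 CpG sites, against medians of 52.4% and 6 over all windows. The Gjb6 window had 56.8% G or C, 5 CpG sites and a match to the Grainyhead motif AACCNGTT, found in 1.79% of windows, and the Gjb5 window had 54.4% G or C, 3 CpG sites and a match to the TATA box letters TATAAA, found in 12.4%, which began 243 bases before the start. The Gja1 window, which is not shown, held a match to the AP-1 motif TGANTCA, as do 6.75% of windows. Searches for the NF-kB motif GGANTTNCC (3.15% of windows), the STAT motif TTCNNNGAA (7.02%) and the C/EBP motif TTGCNNAA (9.56%) found no match in the windows of the 4 genes, which says only that these letters are not there.

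Of the 16 other connexins, 10 passed the filter of a mean of 0.1 FPKM, and their median difference was -0.035, beside -0.0056 over all genes. Of these 10, 0 had an unadjusted limma p under 0.05, 1 was above and 2 were below Cont-IMQ without overlap, or 3 below after median ratio scaling or rescaling to the same summed FPKM.

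Several other connexins had a mean of 1 to 3 FPKM, far below the epidermal connexins. Gjb1, which encodes the Cx32 of hepatocytes and Schwann cells, was present at 1.54 and 0.992 FPKM in Cont-IMQ and at 1.63 and 2.87 FPKM in 7KC-IMQ. The groups were separated by a narrow gap, and the log2 difference of 0.50 (SE 0.24, limma adjusted p = 0.459) was 0.22 without 7KC-IMQ replicate 2, 0.33 without Cont-IMQ replicate 2 and 0.78 without 7KC-IMQ replicate 1. At this low level the pseudocount matters, and with a pseudocount of 0.1 the difference was 0.76. The endothelial connexins Gja4 and Gja5 and the Gjc1 gene of vascular and cardiac conduction cells ranged from 1.29 to 2.67 FPKM over the 4 libraries, and each overlapped between the groups. Of the transcript windows of Gja5, 12.4% are shared with Zfp697, so its level is uncertain. Of the 20 connexins, 4 were listed at 0 in every library.

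**Figure D3:**
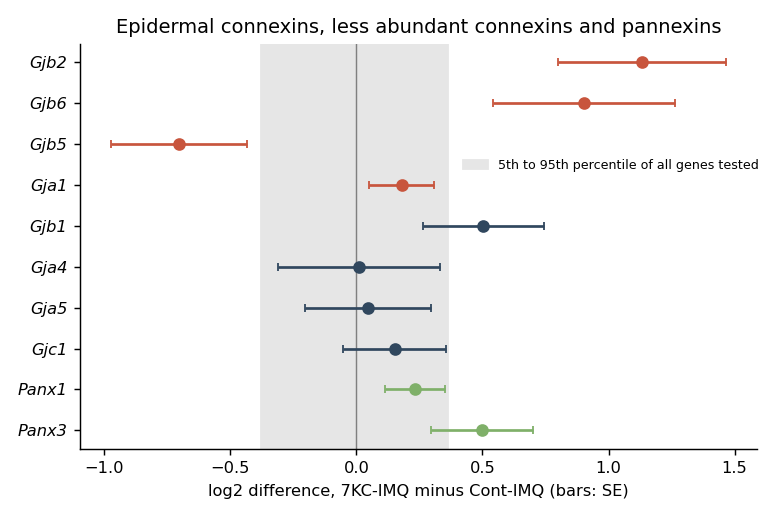
Log2 difference between 7KC-IMQ and Cont-IMQ (horizontal axis, points, with bars for the SE) of the epidermal connexins in red, connexins with a mean of 1 to 3 FPKM in blue and pannexins with a mean of at least 1 FPKM in green (vertical axis). Gjb2, Gjb6 and Gjb5 lie outside the grey band from the 5th to the 95th percentile of all genes, at 1.13, 0.90 and -0.70, and Gja1 lies inside it.

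Pannexins form membrane channels of similar shape that release ATP. Panx1 was present at 17.2 and 14.6 FPKM in Cont-IMQ and at 17.7 and 19.9 FPKM in 7KC-IMQ, with a log2 difference of 0.23 (SE 0.12, limma adjusted p = 0.486) that was 0.12 without Cont-IMQ replicate 2 and 0.15 without 7KC-IMQ replicate 2. Panx3 was present at 3.90 and 2.81 FPKM in Cont-IMQ and at 5.98 and 4.32 FPKM in 7KC-IMQ, with a log2 difference of 0.50 (SE 0.20, limma adjusted p = 0.403) that was 0.32 without Cont-IMQ replicate 2 and 0.30 without 7KC-IMQ replicate 1. Both were separated upward by narrow gaps, and neither passed the threshold. Of 24 genes for proteins that bind, traffic, phosphorylate or degrade connexins, 3 were above and 7 below Cont-IMQ without overlap, 0 had an unadjusted limma p under 0.05, and the median difference was -0.0069. Under the other scalings 1 to 3 were above and 8 or 9 below. The most abundant of them, Csnk1a1, which encodes a casein kinase, was at 232 and 231 FPKM in Cont-IMQ and at 242 and 274 FPKM in 7KC-IMQ. Among 8 purinergic receptors and ectonucleotidases, which sense and break down released ATP, the median difference was 0.017, with 1 gene above and 2 below Cont-IMQ without overlap, or 1 below after quantile normalization. This median had no stable sign, being -0.058 after rescaling to the same summed FPKM, -0.0080 without Cont-IMQ replicate 2 and -0.020 without 7KC-IMQ replicate 1. P2ry2 was at 3.32 and 2.48 FPKM in Cont-IMQ and at 3.99 and 5.48 FPKM in 7KC-IMQ, and P2ry4 was at 3.81 and 2.94 FPKM in Cont-IMQ and at 1.90 and 1.80 FPKM in 7KC-IMQ. These receptors of extracellular nucleotides were separated in opposite directions, with limma adjusted p-values of 0.366 and 0.356 that did not pass the threshold. With a pseudocount of 0.1 their log2 differences of 0.55 and -0.61 were 0.69 and -0.82, and the P2ry2 difference was 0.36 without 7KC-IMQ replicate 2 and 0.40 without Cont-IMQ replicate 2.

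Markers of the keratinocyte layers were read beside the connexins. Of 8 genes that keratinocytes are known to induce when activated, 8 were above Cont-IMQ without overlap under all 4 scalings, 7 had an unadjusted limma p under 0.05, 0 passed an adjusted p of 0.05, and their median difference was 1.35. Their summed level was 6365 and 6384 FPKM in Cont-IMQ, and 13391 and 24251 FPKM in 7KC-IMQ. It was highest in 7KC-IMQ replicate 2, the library in which Gjb2 and Gjb6 were highest, and the part of activated keratinocytes in the connexin values was not tested. S100a9, which encodes a subunit of calprotectin and is also made by neutrophils, was the most abundant, at 1293 and 1063 FPKM in Cont-IMQ and 3586 and 7010 FPKM in 7KC-IMQ. S100a8 was at 1267 and 1037 FPKM in Cont-IMQ and 3608 and 6775 FPKM in 7KC-IMQ, so S100a8 and S100a9 made up much of the summed level. Without 7KC-IMQ replicate 2 the median difference of the 8 genes was 0.80. Neutrophil markers were also separated, 4 of 5 above and 1 below Cont-IMQ under all 4 scalings, 2 of them with an unadjusted limma p under 0.05 and 0 past an adjusted p of 0.05. Their median difference was 0.54, or 0.36 with a minimum mean of 1 FPKM and 0.33 without Cont-IMQ replicate 1. The most abundant, Cxcr2, was at 13.4 and 15.0 FPKM in Cont-IMQ and 20.2 and 23.0 FPKM in 7KC-IMQ, while the summed level of the list overlapped. The S100a8 and S100a9 values, and their part of the sum of the 8 genes, therefore cannot be assigned to keratinocytes or neutrophils.

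Basal, spinous and granular markers did not share this pattern, and at an unadjusted limma p under 0.05, 2 of 6 basal, 1 of 6 spinous and 2 of 5 granular markers were lower in 7KC-IMQ and 0 were higher, with 0 past an adjusted p of 0.05. Of 6 basal markers 2 were above and 2 below Cont-IMQ without overlap, or 1 above and 3 below after quantile normalization or rescaling, with a median difference of 0.0038. This median was below 0 under other settings, at -0.12 after quantile normalization, -0.077 after rescaling, -0.0063 after median ratio scaling, -0.062 without Cont-IMQ replicate 2 and -0.020 without 7KC-IMQ replicate 2. Their summed level overlapped, at 7994 and 7144 FPKM in Cont-IMQ and 7976 and 8782 FPKM in 7KC-IMQ. Krt14, a keratin of basal cells and the most abundant, was separated upward, and Krt15 and Col17a1, of basal stem cells and hemidesmosomes, were separated downward. Of 6 spinous markers, led by Krtdap, 0 were above and 1 was below Cont-IMQ, or 2 below after quantile normalization and 3 after rescaling, and their sum was 23973 and 16024 FPKM in Cont-IMQ and 17688 and 19371 FPKM in 7KC-IMQ. Cont-IMQ replicate 1, the library with the most Gjb5, had the highest spinous sum. The remaining libraries ran the other way. Among them 7KC-IMQ replicate 2 had the least Gjb5 and the highest spinous sum, and Cont-IMQ replicate 2 the most Gjb5 and the lowest sum. Of 5 granular markers in the files, led by Lor, 0 were above and 2, Flg2 and Ivl, were below, and the sum was 2654 and 1961 FPKM in Cont-IMQ and 2009 and 2124 FPKM in 7KC-IMQ. The part of spinous and granular cells in the Gjb5 values was not tested, and no gene of these 3 lists was at 0.

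The connexins were also set against the summed level of the basal keratins Krt5 and Krt14, of which Krt14 was itself higher in 7KC-IMQ. Of the transcript windows of these keratins 5.18% and 5.71% are shared with other genes. Per 1000 FPKM of Krt5 plus Krt14, Gjb2 stood at 14.8 and 21.3 in Cont-IMQ and at 26.4 and 45.2 in 7KC-IMQ. On the same scale Gjb6 stood at 1.99 and 2.58 in Cont-IMQ and at 2.78 and 5.32 in 7KC-IMQ, and Gjb5 at 6.15 and 4.28 in Cont-IMQ and at 3.37 and 2.22 in 7KC-IMQ. The groups remained apart for these 3 genes. Gja1 stood at 25.8 and 33.5 in Cont-IMQ and at 28.4 and 30.5 in 7KC-IMQ, both within the Cont-IMQ range.

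**Figure D4:**
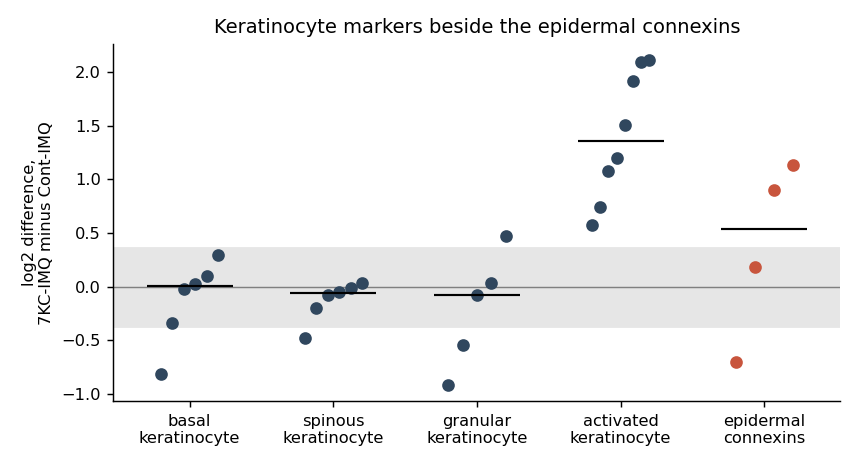
Log2 difference between 7KC-IMQ and Cont-IMQ (vertical axis) of each marker of basal, spinous, granular and activated keratinocytes and of the 4 epidermal connexins (horizontal axis), with a line at each median and a grey band from the 5th to the 95th percentile of all genes. All 8 activated markers lie above the band, at a median of 1.35, while the connexins lie on both sides of 0, at a median of 0.54.

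Of 18 lists of cell type markers, 2 had a summed level that was higher, 6 a level that was lower and 10 a level that overlapped in 7KC-IMQ, by the FPKM as deposited. The other list with a higher sum was that of the sebaceous gland, led by Krt79, at 1301 and 1114 FPKM in Cont-IMQ and 1544 and 1445 FPKM in 7KC-IMQ. Of 16 hair follicle markers, a tissue in which Gja1, Gjb2 and Gjb6 are known to be expressed, 0 were separated, and the sum was 130 and 1654 FPKM in Cont-IMQ and 488 and 430 FPKM in 7KC-IMQ. The most abundant was Krt71, and Krt86 was listed at 0 in Cont-IMQ replicate 1. The Cont-IMQ libraries thus differed widely from each other in follicle markers, and the part of follicles in the connexin values was not tested. Of 6 endothelial markers, led by Pecam1, 5 were below Cont-IMQ without overlap and had an unadjusted limma p under 0.05, with 0 past an adjusted p of 0.05 and a summed level of 53.1 and 58.6 FPKM in Cont-IMQ and 44.3 and 42.4 FPKM in 7KC-IMQ, while Gja4 and Gja5 overlapped. Among 8 reference genes, 6 were above and 1 below Cont-IMQ without overlap with a median difference of 0.14, and 3 were above when the libraries were quantile normalized or rescaled to the same summed FPKM.

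The genes whose values over the 4 libraries were most like those of each connexin were sought among 7095 other genes with a mean of at least 10 FPKM, by the Euclidean distance of log2(FPKM + 1) centred on the mean of the gene. For Gjb2 the nearest were Gm5416 (distance 0.121), Krt6a (0.130) and Krt16 (0.186), of which the keratins are induced in wounded and psoriatic epidermis. Krt6a was at 385 and 542 FPKM in Cont-IMQ and 741 and 1488 FPKM in 7KC-IMQ, and Krt16 was at 1159 and 1333 FPKM in Cont-IMQ and 2035 and 3368 FPKM in 7KC-IMQ. Of their transcript windows 38.6% and 28.9% are shared with other genes, so that reads may have been split between these and near-identical copies. For Gjb6 the nearest were Lce3d (0.263), of a family of cornified envelope proteins, Hs3st1 (0.264), a heparan sulfate sulfotransferase, and Phlda1 (0.268), and the distance between Gjb6 and Gjb2 themselves was 0.271. Of the windows of Lce3d, 38.6% are shared with other genes of its family.

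For Gjb5 the nearest were Il20rb (0.0624), which encodes a receptor subunit for cytokines of the IL-20 family, Asb5 (0.0951) and Bbox1 (0.120), an enzyme of carnitine synthesis. Il20rb was at 82.6 and 53.7 FPKM in Cont-IMQ and 49.0 and 35.9 FPKM in 7KC-IMQ, with a log2 difference of -0.66 (SE 0.26, limma adjusted p = 0.393) that was -0.35 without Cont-IMQ replicate 1 and -0.44 without 7KC-IMQ replicate 2. Like Gjb5, it was highest in Cont-IMQ replicate 1 and lowest in 7KC-IMQ replicate 2. For Gja1 the nearest were Sdc1 (0.0245), a cell surface proteoglycan of epithelia, Clk2 (0.0373), a kinase of splicing factors, and Sap30 (0.0505), of a histone deacetylase complex. Sdc1 was at 238 and 279 FPKM in Cont-IMQ and 273 and 322 FPKM in 7KC-IMQ, and overlapped between the groups as Gja1 did. With 4 libraries a small distance describes these libraries only, and the 3 genes named for each connexin had the smallest distances by construction. The profiles of Gjb2 and Gjb5 were far apart, at a distance of 2.19.

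**Figure D5:**
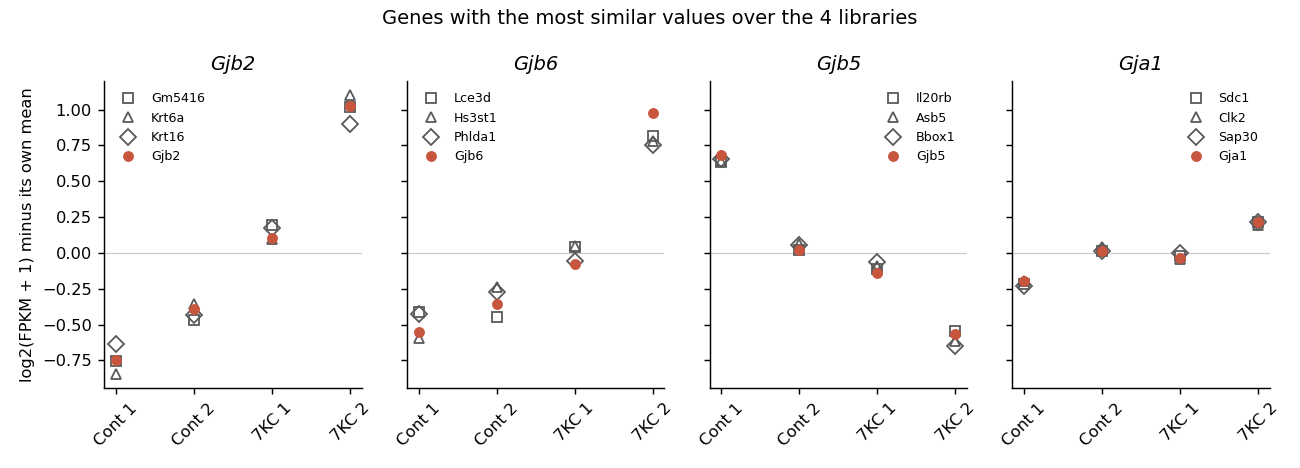
Log2(FPKM + 1) minus its mean over the 4 libraries (vertical axis) for each epidermal connexin (red circles) and its 3 nearest genes (open symbols) in Cont-IMQ and 7KC-IMQ (horizontal axis). Gjb2 and Gjb6 are highest in 7KC-IMQ replicate 2, Gjb5 is highest in Cont-IMQ replicate 1, and the Gja1 values span the narrowest range.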

How the data were processed

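Total RNA of dorsal skin was made into stranded mRNA libraries and sequenced as 75-base single-end reads. The deposited FPKM values were computed by the authors, 1 table per library. The submitters' processing notes name the mm10 genome, TopHat2 2.1.1, Bowtie2 2.2.8, SAMtools 0.1.18 and Cuffdiff 2.2.1; the methods of the study name other versions, and the gene annotation and the use of strand in counting are not given in the sources used here. How reads that match several genes were treated is not stated, so values of near-identical genes are uncertain.

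Here, limma 3.58.1 (R 4.3.3), with a mean-variance trend, was fitted to log2(FPKM + 1) of the 15896 genes with a mean of at least 0.1 FPKM over the 4 libraries, after testing the script on simulated data. The p-values were two-sided, with Benjamini-Hochberg adjustment over all 15896 genes. FPKM are not counts, so no count model was used. Alternatives were a pseudocount of 0.1, a minimum mean of 1 FPKM or no filter, median ratio scaling, quantile normalization, rescaling to the same summed FPKM, no trend, the replicate number as a block, and leaving out each library. Depth was estimated as the read total that made most low values of genes with 1 transcript a whole number of reads within 0.1, assuming fragments of 200 bases. This held for 72.1% to 76.0% of 338 to 358 genes, against 20% by an even spread, so read numbers are approximate.

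The members, lists and tests were chosen with earlier results of these data known. Genes were named if they were members, pannexins or some of the other connexins with a mean of at least 1 FPKM, the most abundant gene of a list or a list gene with an unadjusted p under 0.05, the 2 nearest genes on each side of a member, or the 3 genes nearest in profile. Positions came from GENCODE M21 and promoters from RefSeq, which matched 4 of 4 members. Motifs were searched on both strands with Python 3.11.15, pandas 2.3.3 and numpy 2.4.6. Figures were drawn with matplotlib 3.10.9.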

Additional observations from a re-analysis of the deposited data

How the results depend on the processing

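The log2 differences of Gja1, Gjb2, Gjb5 and Gjb6 kept their direction, and their limma adjusted p stayed above 0.05, under every alternative run, while the connexins with an unadjusted p under 0.05 numbered 0 to 3 of 4. Leaving out each library gave ranges of 0.054 to 0.31 for Gja1, 0.67 to 1.59 for Gjb2, -1.04 to -0.37 for Gjb5 and 0.38 to 1.43 for Gjb6. In these fits the lone library of a group is assumed to vary like the pair of the other group. The count of genes past an adjusted p of 0.05 was 1, but 2 with a pseudocount of 0.1, and ranged from 1 to 9 when a library was left out (9 without Cont-IMQ replicate 1, 5 without Cont-IMQ replicate 2); the cause was not tested. The count of genes separated without overlap was 7435 and ranged from 6439 to 7945 over the filters, scalings and pseudocount tried. The median difference of the other connexins, -0.035, was 0.028 with a minimum mean of 1 FPKM, -0.010 after quantile normalization, -0.077 after rescaling to the same summed FPKM, and -0.11 to -0.022 without a library. That of the connexin partners, -0.0069, was -0.017 after median ratio scaling, -0.084 after quantile normalization, -0.088 after rescaling, and -0.038 to 0.010 without a library. Rescaling also moved the median of all genes from -0.0056 to -0.067. With the replicate number as a block the differences stayed 0.18, 1.13, -0.70 and 0.90 for Gja1, Gjb2, Gjb5 and Gjb6, the limma adjusted p-values were 0.509, 0.40, 0.40 and 0.44, and the count stayed 1. Nothing in the labels or the paper marks a shared litter, batch or day, and the deviations of same-numbered libraries had a correlation across genes of 0.0651. Each group had only 2 libraries, and the counting error of the 4 connexins covers the sampling of reads, not the spread between samples.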
